A study of Arabidopsis thaliana with 8 samples.

Results

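Brassinosteroids are the steroid hormones of plants, and 10 Arabidopsis thaliana genes for enzymes that make or inactivate them were followed in rosette leaves of the line DLK2-OE1 and of the wild type (WT). The genes were taken by locus from 27634 rows of the deposited tables: the sterol enzymes DWF7 (AT3G02580), DWF5 (AT1G50430) and DWF1 (AT3G19820), the reductase DET2 (AT2G38050), the cytochrome enzymes DWF4 (AT3G50660), CPD (AT5G05690), ROT3 (AT4G36380), BR6OX1 (AT5G38970) and BR6OX2 (AT3G30180), and the inactivating enzyme BAS1 (AT2G26710). All 10 were found and all 10 passed the filter on low counts. DLK2 encodes an α/β hydrolase related to the strigolactone receptor D14, and the name DLK2-OE1 is read here as that of a DLK2 overexpression line. There were 4 libraries of DLK2-OE1 and 4 of WT, all from plants aged 24 days that had grown 11 days on medium and 13 days on soil, with no other treatment given. The labels give neither the promoter that drives the transgene nor the background accession, and all DLK2-OE1 libraries come from a single line, so an effect of DLK2 and other differences of that line cannot be told apart. Whether the replicates came from separate plants or from pools is not stated in the labels, so p-values speak only of how far these libraries spread, and that spread may be technical.

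Brassinosteroid synthesis starts from plant sterols. DWF7, DWF5 and DWF1 act in succession on the way to campesterol, and the same steps serve the membrane sterols. DET2 then reduces the steroid ring, and the cytochrome enzymes DWF4, CPD, ROT3, BR6OX1 and BR6OX2 oxidize the side chain and the ring until the active hormones castasterone and brassinolide are formed. BAS1 hydroxylates both hormones and so inactivates them. The pathway is under feedback: when the receptor BRI1 is active, the transcription factors BZR1 and BES1 lower the transcripts of synthesis genes such as CPD and DWF4 and raise that of BAS1. Loss of DWF1, DET2, DWF4 or CPD gives dwarf plants with small, round, dark green leaves.

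BZR1 binds the brassinosteroid response element (BRRE, searched as CGTGTG or CGTGCG), and the G-box (CACGTG) is bound by BES1 and by other factors of the bHLH and bZIP families. Both were searched on both strands in the TAIR10.1 sequence of RefSeq. In the 300 bases before the annotated gene start, no member held a BRRE, against 7.64% of 27443 genes. DWF5 alone held G-boxes, at 48 and 41 bases before the start, against 7.09% of genes. Of these 300 bases, 184 in DWF5 lay in the neighbouring gene AT1G50440 and 104 in DET2 lay in AT2G38060. The DWF5 G-boxes lay outside AT1G50440. In the 1000 bases before the first start codon, a window chosen after the shorter one had been examined, 4 of 10 members held a BRRE, against 21.9% of all genes, and 2 of 10 held a G-box, against 15.1%. The stretches around these sites are shown because the feedback on the pathway acts through such elements, with the motif letters in capitals, 5′ to 3′ on the strand of the gene. In DWF7 the G-box and the BRRE overlap, and in DWF4 the BRRE is read on the other strand. The CPD site lies inside the annotated gene, before its start codon, and that stretch is kept to 30 bases.
DWF7, chr3:546289-546348, plus strand: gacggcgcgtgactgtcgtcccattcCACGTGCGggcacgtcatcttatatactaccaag
DWF5, chr1:18685664-18685723, minus strand: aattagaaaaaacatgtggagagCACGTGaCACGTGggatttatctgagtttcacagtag
DWF4, chr3:18817831-18817890, minus strand: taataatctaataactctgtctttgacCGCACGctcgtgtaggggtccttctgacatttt
CPD, chr5:1706769-1706798, minus strand: gcagaaacccccCGTGTGcccactctcccc
ROT3, chr4:17192888-17192947, minus strand: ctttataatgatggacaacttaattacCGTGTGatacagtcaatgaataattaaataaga
The sites stood 733 bases before the start codon in DWF7, 145 in DWF5, 695 in DWF4, 81 in CPD and 718 in ROT3. DWF1 held neither motif in either window, and nor did DET2, BR6OX1, BR6OX2 and BAS1. DWF1 is the member called higher in DLK2-OE1 below, a call that was lost in most fits with fewer libraries. The 300 bases before the start of DWF1 are given for comparison. These matches describe letters in a window and say nothing about binding.
DWF1, chr3:6882316-6882615, minus strand: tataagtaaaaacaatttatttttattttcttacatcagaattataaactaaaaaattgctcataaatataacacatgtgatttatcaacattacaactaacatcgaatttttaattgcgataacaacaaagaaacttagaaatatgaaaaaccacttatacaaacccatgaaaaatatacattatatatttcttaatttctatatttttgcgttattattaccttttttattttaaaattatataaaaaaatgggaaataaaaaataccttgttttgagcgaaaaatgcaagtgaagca

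Library totals ran from 18461205 to 19385026 counts in DLK2-OE1 and from 18097159 to 22139801 in WT. DLK2 was at 120.2, 150.3, 137 and 145 CPM (counts scaled to library size, TMM-normalized) in DLK2-OE1 replicates 1 to 4, against 60.4, 73.5, 85.1 and 73.4 CPM in WT replicates 1 to 4, and the groups did not overlap. Its log2 fold change was 0.92 (SE 0.12, Benjamini-Hochberg adjusted p = 0.0178 in the quasi-likelihood test of edgeR), and an exact two-sided permutation test of the mean CPM gave p = 0.0286, the smallest this design allows. Leaving out single libraries ended the DLK2 call in 3 of 8 cases, without WT replicate 1 or 3 or DLK2-OE1 replicate 1. The leaf markers summed to 23439 to 47759 CPM in DLK2-OE1 and 37656 to 50438 CPM in WT, while the root markers reached at most 0.701 CPM in DLK2-OE1 and 0.153 CPM in WT. Libraries DLK2-OE1 replicates 1 and 2 stood apart from the other 6: their xylem markers summed to 156 and 274 CPM, against 66.7 to 93.8 CPM in DLK2-OE1 replicates 3 and 4 and 23.6 to 64.2 CPM in WT, and their cell division markers to 107 and 142 CPM, against 30.7 to 42.2 CPM in DLK2-OE1 replicates 3 and 4 and 14.3 to 25.6 CPM in WT. For many of the genes below, the value without both is also given. Where it is not given, the estimate may still have moved.

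Of the 10 genes, DWF1 rose in DLK2-OE1 and none fell, by edgeR and likewise by DESeq2 and limma-voom. Genes called by edgeR at an adjusted p under 0.05 made up 3.69% of the 18155 genes tested, with 2.12% higher and 1.58% lower in DLK2-OE1. DESeq2 called 13.8% of 20441 genes. Against such a background, 1 call among 10 genes says little. The log2 fold change was positive in 6 members and negative in 4, with a median of 0.09, beside a median of 0.00 over all genes tested. At an unadjusted p under 0.05 stood 3 members, DWF7, DWF1 and DET2, and 4779 of all genes. The libraries of the genotypes did not overlap in 2 members, DWF1 upward and DET2 downward, where 15.2% of all genes did not overlap in either direction.

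**Figure D1:**
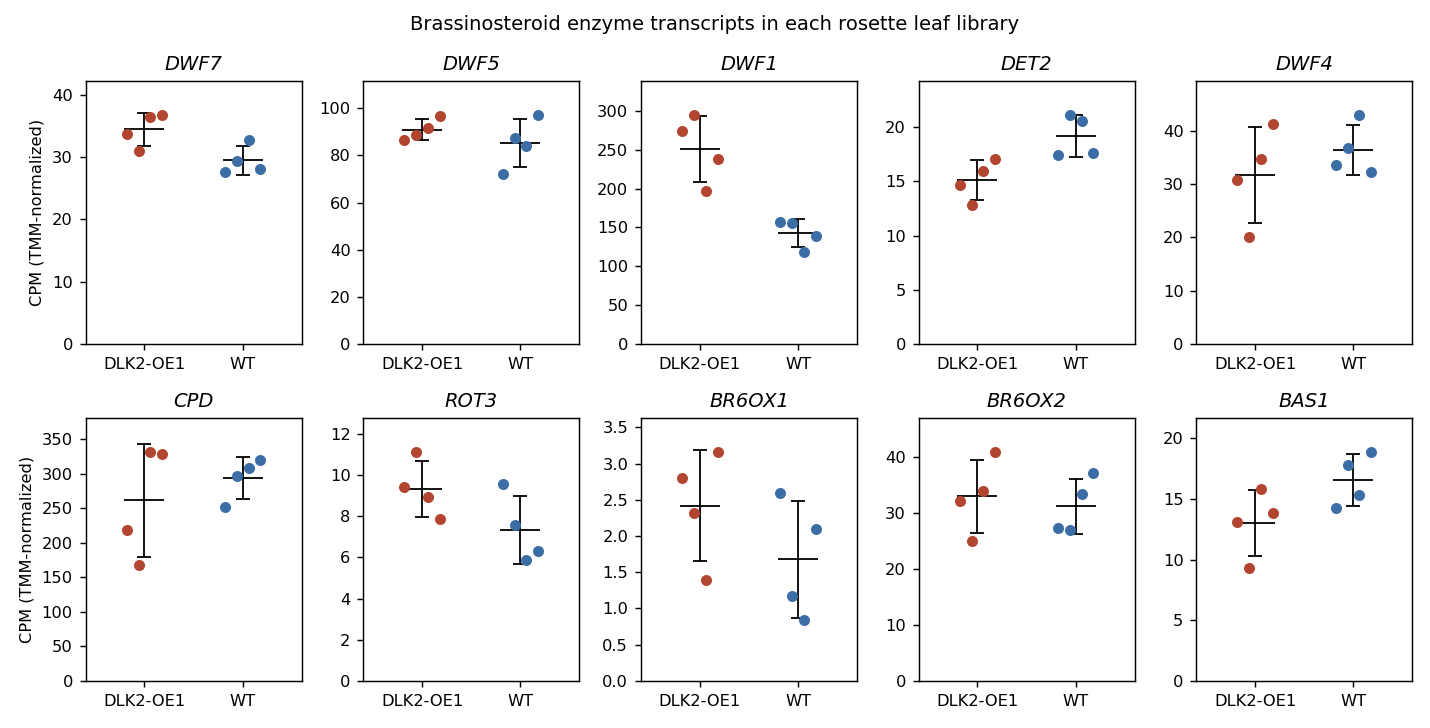
CPM (TMM-normalized, linear axes from 0) of the 10 genes in each library, with DLK2-OE1 left of WT. Points are libraries, long bars the mean and short bars the SD (n = 4 each). DWF1 sits at 197 to 294 CPM in DLK2-OE1 and 119 to 158 CPM in WT, and CPD is split into a low and a high pair of libraries in DLK2-OE1.

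DWF1 encodes the reductase that completes the campesterol side chain, the last sterol step before the brassinosteroid branch. Its transcript was at 274, 294, 197 and 237 CPM in DLK2-OE1 replicates 1 to 4 against 158, 155, 119 and 139.6 CPM in WT replicates 1 to 4. Every DLK2-OE1 library was above every WT library, and replicates 1 and 2 were the highest of all. The means were 251 ± 42.7 CPM in DLK2-OE1 and 143 ± 17.9 CPM in WT (SD, n = 4 each), and raw counts were 5469, 6852, 3676 and 4208 in DLK2-OE1 against 2672, 3158, 2387 and 2736 in WT. The level was 1.76-fold higher in DLK2-OE1 (95% interval 1.38 to 2.23), a log2 fold change of 0.81 with an SE of 0.15 (adjusted p = 0.0334 by edgeR). By p the gene stood at place 229 of 18155, and 220 of the 670 called genes had a smaller change. Without DLK2-OE1 replicates 1 and 2 the log2 fold change was 0.62 and no longer passed (adjusted p = 0.114). Leaving out a single library kept it between 0.73 and 0.91, but the adjusted p lay above 0.05 in 6 of 8 cases, at 0.0941, 0.0766, 0.131 and 0.0546 without WT replicates 1, 2, 3 and 4, and at 0.109 and 0.0528 without DLK2-OE1 replicates 1 and 2 in turn. It also lay above 0.05 in limma-trend on log2 FPKM with no filter on low values (0.0785). In bulk tissue, a different number of cells with the transcript and a different level per cell cannot be told apart. DWF1 spans bases 6879524 to 6882315 of chromosome 3 (TAIR10.1, minus strand), with 2 to 3 exons in 3 annotated transcripts, and shares 20 bases with AT3G19810 on the same strand, which had at most 913 counts in a library.

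**Figure D2:**
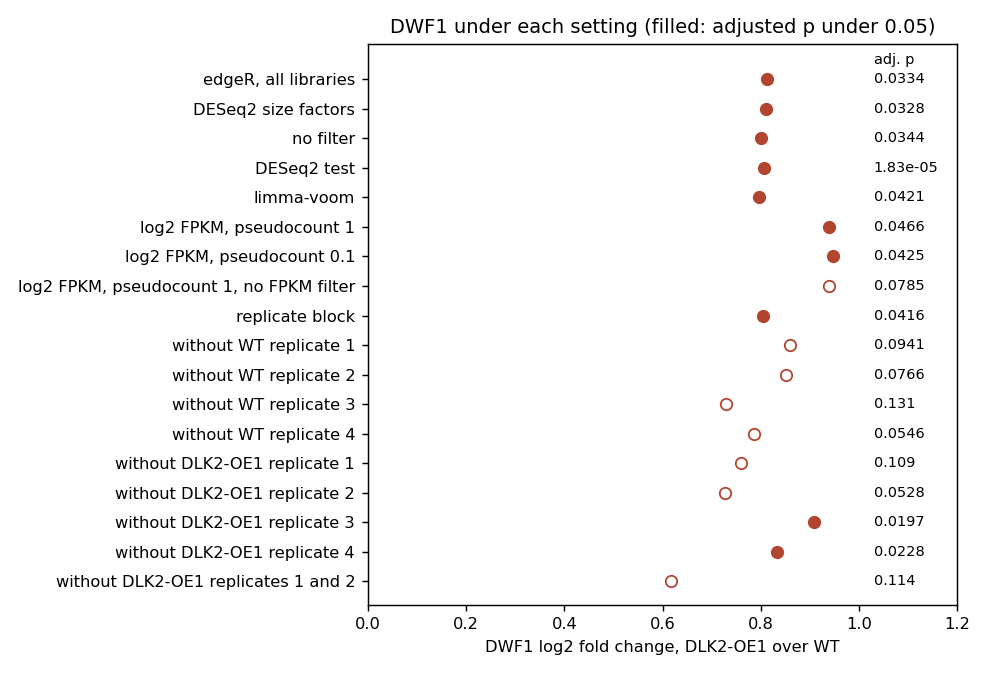
Log2 fold change of DWF1, DLK2-OE1 over WT, under each way of processing the data, with the adjusted p at the right. Filled points have an adjusted p under 0.05. All estimates are positive, from 0.62 to 0.95, and the call is lost in most fits with fewer libraries.

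The other sterol steps did not pass the test. DWF7 (STE1 in the annotation), the desaturase that acts before DWF5, was at 33.7, 31.0, 36.3 and 36.7 CPM in DLK2-OE1 and 27.7, 29.3, 32.8 and 28.0 CPM in WT. The ranges overlapped through DLK2-OE1 replicate 2 and WT replicate 3, and the log2 fold change of 0.22 (SE 0.09) did not pass (adjusted p = 0.16 by edgeR). On the FPKM scale, DWF7 ran from 29.9 to 31.8 in DLK2-OE1 and from 22.1 to 26.4 in WT, without overlap. FPKM values divide by transcript length and were used as deposited, without the TMM scaling of the counts. On that scale the median of all genes also lay higher in DLK2-OE1, by 0.12 (log2). DWF5, the reductase that follows DWF7, was at 86.5, 88.7, 91.8 and 96.8 CPM in DLK2-OE1, inside the WT values of 72.3, 87.2, 84.0 and 97.0 CPM. Its log2 fold change was 0.10 with a 95% interval of -0.14 to 0.33 (adjusted p = 0.587 by edgeR). Without DLK2-OE1 replicates 1 and 2 the DWF5 estimate was 0.16 and did not pass. DWF7 spans bases 546739 to 548846 of chromosome 3 (plus strand, 3 exons), and DWF5 bases 18681932 to 18685652 of chromosome 1 (minus strand, 13 exons). Within each library, the ratio of DWF1 to the geometric mean of DWF5 and DWF7, taken on the FPKM scale, was 3.49, 3.85, 2.35 and 2.76 in DLK2-OE1 and 2.45, 2.13, 1.56 and 1.85 in WT. The DLK2-OE1 ratio in replicate 3 lay below the highest WT ratio, in replicate 1, so these ratios overlapped although DWF1 itself did not.

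DET2, which encodes the steroid reductase after campesterol, was the one member with all DLK2-OE1 libraries below all WT libraries. It was at 14.7, 12.8, 16.0 and 17.1 CPM in DLK2-OE1 leaves, against 17.4, 21.1, 20.5 and 17.6 CPM in WT. The gap between the groups was narrow, since DLK2-OE1 replicate 4 lay just under WT replicate 1. The means were 15.1 ± 1.85 CPM in DLK2-OE1 and 19.1 ± 1.92 CPM in WT (SD, n = 4 each), a fold of 0.79 with a 95% interval of 0.657 to 0.949. With an adjusted p of 0.114 by edgeR it did not pass, and 7.29% of all genes tested had DLK2-OE1 wholly below WT. On the FPKM scale the ranges overlapped slightly, at 14.07 to 14.92 in DLK2-OE1 and 14.91 to 17.73 in WT. DET2 spans bases 15921136 to 15922321 of chromosome 2 (minus strand) and shares 35 bases with AT2G38040 on the other strand, which had up to 5123 counts in a library. No label states whether counting used strand, so reads of that overlap could be assigned to either gene.

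**Figure D3:**
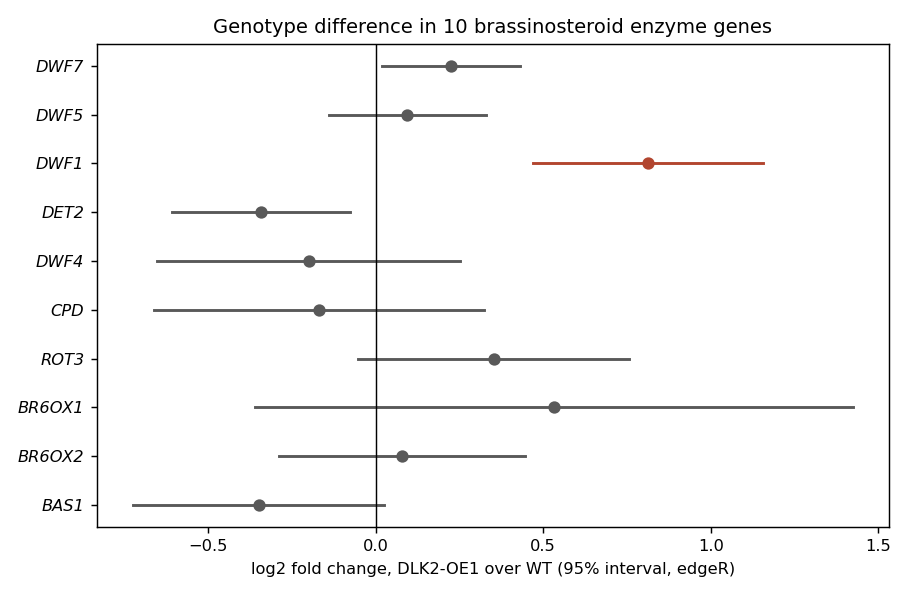
Log2 fold change of each of the 10 genes, DLK2-OE1 over WT, with its 95% interval from the edgeR fit. Genes run in pathway order from top to bottom, and the coloured point is DWF1, the gene with an adjusted p under 0.05. The BR6OX1 interval is the widest, from -0.36 to 1.42.

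DWF4, which oxidizes the side chain, and CPD, which oxidizes the steroid ring, are common readouts of pathway feedback. Neither passed the test, and both were spread widely among the DLK2-OE1 libraries. CPD was at 219, 168, 331 and 328 CPM in DLK2-OE1 replicates 1 to 4, and at 251, 297, 308 and 319 CPM in WT. DLK2-OE1 replicates 1 and 2 lay below every WT library and replicates 3 and 4 above every WT library. The means of 261 ± 81.5 CPM in DLK2-OE1 and 294 ± 29.8 CPM in WT (SD, n = 4 each) gave an estimate of -0.17 in log2 (SE 0.22, adjusted p = 0.653 by edgeR), and the 95% interval of the fold, 0.633 to 1.25, includes no change. DWF4, the hydroxylase that opens the side-chain oxidation, was at 30.7, 20.04, 34.8 and 41.4 CPM in DLK2-OE1 leaves, against 33.6, 36.8, 42.9 and 32.3 CPM in WT. Only DLK2-OE1 replicates 1 and 2 lay below the WT range, and the log2 fold change was -0.20 (SE 0.20, adjusted p = 0.552 by edgeR). Without DLK2-OE1 replicates 1 and 2 both estimates changed sign, to 0.18 for CPD and 0.08 for DWF4, and neither passed. CPD spans bases 1702640 to 1706948 of chromosome 5 (minus strand) and shares 20 bases with AT5G05680 on the other strand, which had up to 246 counts. DWF4 spans bases 18813949 to 18817405 of chromosome 3 (minus strand).

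ROT3, a cytochrome enzyme of side-chain hydroxylation known for its effect on leaf length, was at 9.42, 11.1, 8.95 and 7.84 CPM in DLK2-OE1 and at 9.55, 7.56, 5.86 and 6.33 CPM in WT. The groups overlapped because WT replicate 1 lay above 3 of the 4 DLK2-OE1 libraries. A log2 fold change of 0.35 was estimated (SE 0.18, adjusted p = 0.244 by edgeR). ROT3 spans bases 17187528 to 17192507 of chromosome 4 (minus strand) and shares 83 bases with AT4G36370 on the other strand, which was at 0 counts.

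BR6OX1 and BR6OX2 encode related oxidases of the final steps, of which BR6OX2 also makes brassinolide. BR6OX1 was the scarcest member, with 56, 54, 26 and 56 counts in DLK2-OE1 against 44, 24, 17 and 41 in WT, or 2.42 ± 0.765 CPM in DLK2-OE1 and 1.68 ± 0.807 CPM in WT (SD, n = 4 each). The 95% interval of its fold was wide, from 0.78 to 2.68 (adjusted p = 0.415 by edgeR). The libraries of each genotype spread beyond counting error, with a fitted biological coefficient of variation of 0.378. BR6OX2 was at 32.3, 24.97, 33.9 and 41.0 CPM in DLK2-OE1 and at 27.3, 27.0, 33.5 and 37.2 CPM in WT, with overlapping groups, an estimate of 0.08 in log2 (SE 0.16, adjusted p = 0.791 by edgeR) and a fold interval of 0.819 to 1.36. The FPKM ratio of BR6OX2 to BR6OX1 was 11.5, 10.7, 24.5 and 12.9 in DLK2-OE1 and 10.4, 22.7, 39.3 and 17.8 in WT, so BR6OX2 was the more abundant of the pair in every library. BR6OX1 spans bases 15594674 to 15598089 of chromosome 5 (minus strand), and BR6OX2 bases 11810726 to 11813883 of chromosome 3 (plus strand).

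BAS1, the inactivating hydroxylase, was at 13.1, 9.35, 15.9 and 13.9 CPM in DLK2-OE1 leaves, against 14.3, 17.8, 15.4 and 18.9 CPM in WT. DLK2-OE1 replicates 1, 2 and 4 lay below the WT range and replicate 3 inside it. The log2 fold change was -0.35 (SE 0.17, adjusted p = 0.216 by edgeR), with a fold interval of 0.605 to 1.02. On the FPKM scale the ratio of BAS1 to CPD, the inactivating over a synthesizing enzyme, was 0.052, 0.0485, 0.0416 and 0.0368 in DLK2-OE1 and 0.0494, 0.0522, 0.0434 and 0.0514 in WT. DLK2-OE1 replicates 3 and 4 had ratios below all WT libraries, and replicates 1 and 2 were within the WT range. BAS1 spans bases 11380463 to 11383821 of chromosome 2 (plus strand, 4 exons).

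Per length, CPD and DWF1 were the most abundant transcripts and BR6OX1 the least in both genotypes. On the FPKM scale, DLK2-OE1 leaves had 157 ± 35.2 of CPD and 133 ± 35.1 of DWF1, whose ranges overlapped, while WT leaves had 163 ± 20.3 of CPD and 67.6 ± 8.11 of DWF1, whose ranges did not (SD, n = 4 each). DWF5 followed at 58.4 ± 4.47 in DLK2-OE1 and 49.4 ± 7.29 in WT, and its WT range overlapped that of DWF1. DWF7 came next at 30.9 ± 0.811 in DLK2-OE1 and 23.9 ± 1.84 in WT. BR6OX2, DWF4 and DET2 lay close together, at 19.3 ± 2.1, 18.8 ± 3.68 and 14.5 ± 0.352 in DLK2-OE1 and at 16.7 ± 3.23, 19.8 ± 2.35 and 16.6 ± 1.37 in WT, and neighbours among them overlapped in both genotypes. BAS1 was at 6.89 ± 0.937 in DLK2-OE1 and 8.01 ± 1.22 in WT, ROT3 at 4.67 ± 1.18 in DLK2-OE1 and 3.25 ± 0.686 in WT, and BR6OX1 at 1.44 ± 0.449 in DLK2-OE1 and 0.901 ± 0.44 in WT. Differences between the genotypes on this scale include the shift of the all-gene median given above, which was 0.00 for TMM-normalized counts.

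**Figure D4:**
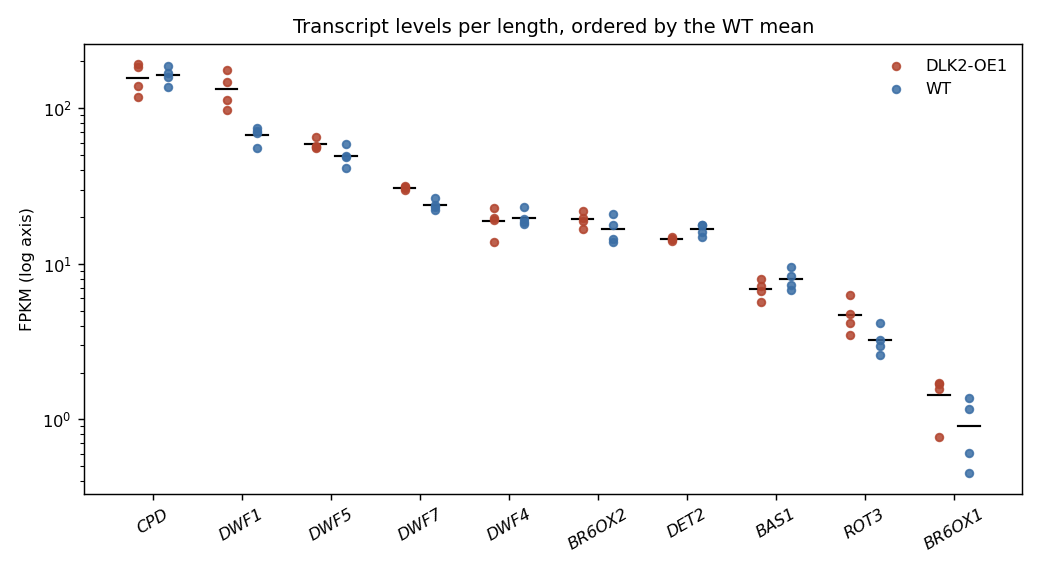
FPKM of the 10 genes on a log axis, ordered by the WT mean, with DLK2-OE1 left of WT within each gene. Points are libraries and bars group means (n = 4 each). The levels span from BR6OX1, at 0.901 in the WT mean, to CPD, at 163 in the WT mean.

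Several members shared a low value in DLK2-OE1 replicate 2. It was the lowest of the 8 libraries for 5 of 10 members (50.0%), namely DET2, DWF4, CPD, BR6OX2 and BAS1, beside 24.8% of all genes tested. For DWF1 and ROT3 the same library was the highest. Relative to the WT mean, log2 CPM in DLK2-OE1 replicate 2 was -0.85 for DWF4, -0.80 for CPD and -0.81 for BAS1. The enzyme genes CYP90D1, the partner of ROT3, and SOB7, another inactivating hydroxylase, were at -0.82 and -0.71 there, both picked after their values were seen, but BEN1 and BAT1 of the same group of enzymes were highest there, at 0.57 and 2.01. With both DLK2-OE1 replicates 1 and 2 left out, the log2 fold change was -0.20 for DET2, 0.21 for ROT3, 0.27 for BR6OX2 and -0.15 for BAS1, and none passed by edgeR. DLK2-OE1 replicates 1 and 2 also had the highest marker sums for xylem, given above, and for the shoot apex, at 31.9 and 52.1 CPM, against 6.49 and 8.12 CPM in DLK2-OE1 replicates 3 and 4 and 0 to 2.31 CPM in WT. They had the lowest sums of phloem markers, at 214 and 159 CPM, against 256 and 278 CPM in DLK2-OE1 replicates 3 and 4 and 255 to 292 CPM in WT, and of leaf mesophyll markers, at 33768 and 23439 CPM, against 37660.1 and 47759 CPM in DLK2-OE1 replicates 3 and 4 and 37656 to 50438 CPM in WT. SUC2 gave most of the phloem sum, averaging 171 CPM in DLK2-OE1 and 235 CPM in WT. SUC2 and APL were lowest in DLK2-OE1 replicate 2, but the phloem marker SEOR1 was highest there. SEOR1 averaged 42.3 CPM in DLK2-OE1 and 26.8 CPM in WT, and its groups did not overlap. Over the whole lists, 3 of 8 tested xylem markers, 4 of 10 cell division markers and both tested shoot apex markers were called higher in DLK2-OE1 by edgeR. That stands beside 2.12% of all genes. The shoot apex sum in DLK2-OE1 was mostly STM and KNAT1, which averaged 10.6 and 13.4 CPM there and 0.135 and 0.123 CPM in WT. The other 4 of the 6 shoot apex markers were not tested. Of these, WUS, LFY and AP1 reached at most 0.0501, 0.172 and 1.37 CPM in any library. CLV3 was at 0 in every library, and no marker of phloem or leaf mesophyll was called by edgeR. At an unadjusted p under 0.05 stood 1 phloem and 0 leaf markers, beside 4779 of all 18155 genes. DESeq2, which called 13.8% of all genes, called SEOR1 of the phloem higher. The xylem, cell division and shoot apex lists had 6, 10 and 2 markers called higher by DESeq2 and 0 each by limma-voom. Of all 18155 genes, limma-voom called 264. Without DLK2-OE1 replicates 1 and 2, edgeR called 1 xylem marker, CESA7, and 0 of the cell division and shoot apex markers. That fit called only 60 of all 18319 genes, so the loss of marker calls says little about the markers. The part of this shift in the values of the 10 genes was not tested.

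**Figure D5:**
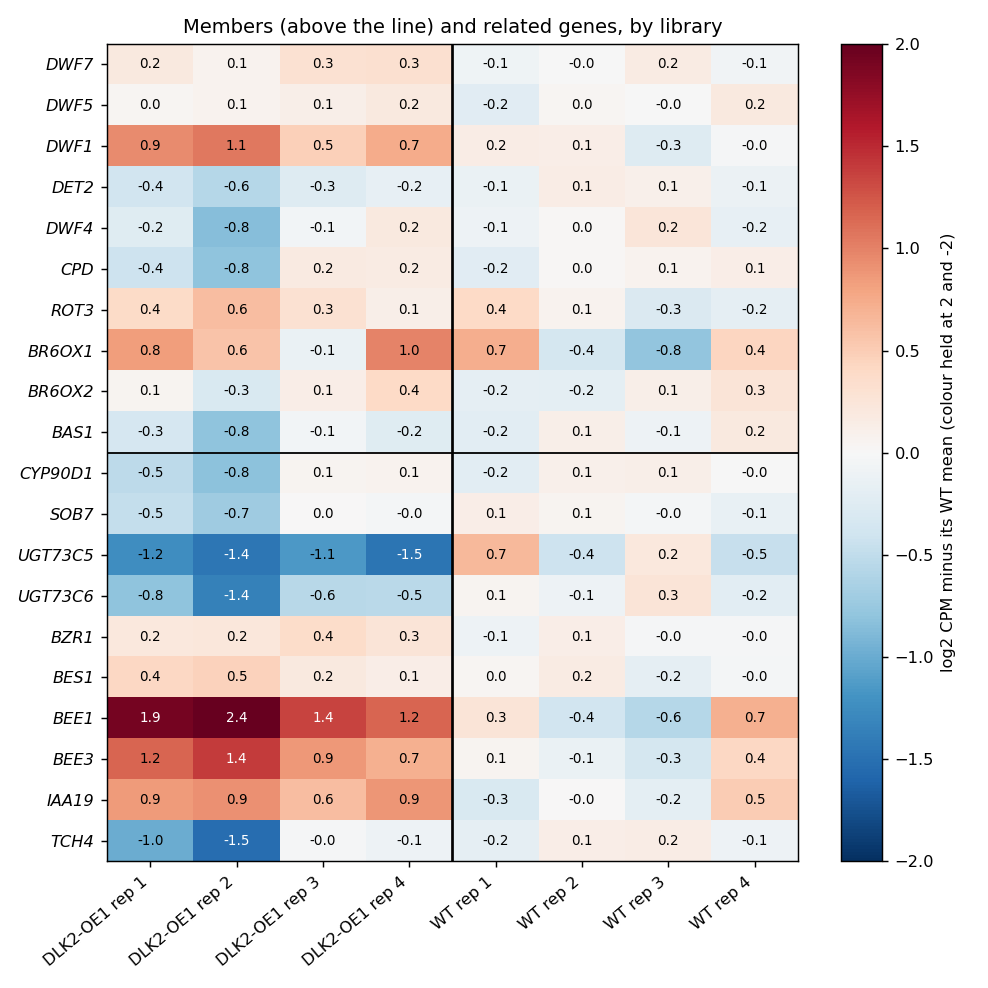
Log2 CPM minus the WT mean of each gene, by library, for the 10 genes (above the line) and 10 related genes (below), with DLK2-OE1 left of WT. Each cell prints its value, and DLK2-OE1 replicate 2 is low for DWF4, CPD, BAS1, CYP90D1 and SOB7 and high for DWF1, BEE1 and BEE3.

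Around the 10 genes, 69 further genes of brassinosteroid and sterol biology were examined, of which 65 passed the filter. Among these, 3 were higher, 1 was lower and 61 did not pass, with a median log2 fold change of 0.10, so 4 calls among 65 stand beside the 3.69% called of all genes. Among 6 tested enzymes outside the 10, edgeR called UGT73C5 lower and none higher, with 3 at an unadjusted p under 0.05. Over all 18155 genes tested, 4779 had such an unadjusted p. DESeq2 called UGT73C5 and UGT73C6 lower and BEN1 higher, beside 13.8% of all genes that it called in either direction. By limma-voom none was called. UGT73C5, a glucosyltransferase that inactivates brassinosteroids, was at 6.91, 6.05, 7.45 and 5.98 CPM in DLK2-OE1 leaves, against 26.1, 12.4, 19.2 and 12.04 CPM in WT. The groups did not overlap, and the log2 fold change was -1.40 (SE 0.25, adjusted p = 0.0279 by edgeR). Its close paralog UGT73C6 was at 9.97, 6.78, 11.9 and 12.02 CPM in DLK2-OE1 and at 18.3, 16.3, 21.0 and 15.2 CPM in WT, also without overlap (log2 fold change -0.80, SE 0.19, adjusted p = 0.0507 by edgeR). As reads of close paralogs can be shared, the value of each is uncertain, and the share of such reads was not measured. BEN1, a reductase-like gene of brassinosteroid turnover, had a log2 fold change of 0.44 (adjusted p = 0.0734 by edgeR), and the acyltransferase gene BAT1 one of 1.26 (adjusted p = 0.248). The BAT1 estimate was 0.77 without DLK2-OE1 replicate 2 and 0.03 without replicates 1 and 2. Without DLK2-OE1 replicates 1 and 2, the UGT73C5 log2 fold change was -1.36 (adjusted p = 0.173 by edgeR), and its call was also lost in limma-voom (0.0573), without WT replicate 1 (0.072) or 3 (0.113) and without DLK2-OE1 replicate 1 (0.092) or 2 (0.0569).

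None of 19 genes of sterol synthesis outside the 10 passed the test by edgeR, and 7 had an unadjusted p under 0.05. The estimate was positive in 15 and negative in 4, with a median log2 fold change of 0.15. Over all 18155 genes tested, 4779 had an unadjusted p under 0.05 and 50.5% a positive estimate. DESeq2 called SMT1 higher and CYP710A1 lower, where it called 13.8% of all genes, and limma-voom called none. SMT1, a sterol methyltransferase that supplies the precursors of campesterol, averaged 168 ± 16.7 CPM in DLK2-OE1 and 135 ± 8.35 CPM in WT (SD, n = 4 each; log2 fold change 0.32, adjusted p = 0.0988 by edgeR). It did not overlap between the genotypes, nor did CPI1, the cyclopropyl isomerase, at a log2 fold change of 0.34 (adjusted p = 0.0996), or SMO2-1, a methyl oxidase, at 0.28 (adjusted p = 0.0983). The CPI1 estimate was 0.21 without DLK2-OE1 replicates 1 and 2. The share of genes with DLK2-OE1 wholly above WT was 7.87% over all genes tested. CYP710A1, a desaturase that makes stigmasterol, was at 0.851, 1.54, 1.07 and 1.13 CPM in DLK2-OE1 and at 13.2, 0.589, 2.68 and 6.68 CPM in WT. Its WT libraries differed from each other by more than the genotypes did, and the log2 fold change of -2.31 (SE 0.75) did not pass (adjusted p = 0.101 by edgeR).

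The receptor and its signalling chain held no call by edgeR. Of 14 tested genes of perception and signalling, none passed by edgeR and 3 had an unadjusted p under 0.05, beside 4779 of all 18155 genes. DESeq2 called SERK1 higher and BRL3 lower, where it called 13.8% of all genes, and limma-voom called none. BRI1, the main receptor, averaged 311 ± 32.1 CPM in DLK2-OE1 and 318 ± 13.5 CPM in WT (SD, n = 4 each; log2 fold change -0.03, adjusted p = 0.88 by edgeR), and is named here after its values were seen. BRL3, a vascular homolog of the receptor, was at 5.06, 6.91, 5.31 and 6.49 CPM in DLK2-OE1 leaves, against 7.96, 8.30, 10.9 and 11.6 CPM in WT, without overlap (log2 fold change -0.71, SE 0.17, adjusted p = 0.0547). SERK1, a coreceptor kinase, was at 8.16, 9.78, 3.22 and 2.48 CPM in DLK2-OE1 leaves, against 2.06, 1.96, 1.74 and 1.63 CPM in WT, with replicates 1 and 2 the highest (log2 fold change 1.68, SE 0.43, adjusted p = 0.0598). Leaving those 2 libraries out gave 0.63 (adjusted p = 0.289 by edgeR). BRL1, another receptor homolog, had a log2 fold change of 0.91 (adjusted p = 0.184), and BIN2, the kinase that restrains BZR1 and BES1, one of 0.19 (adjusted p = 0.287). The BRL1 estimate was 0.40 without DLK2-OE1 replicate 2 and 0.10 without replicates 1 and 2.

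Among 12 tested transcription factors of the pathway, BEE1 and BEE3 rose in DLK2-OE1 by edgeR and 10 did not pass. The median log2 fold change was 0.28, and edgeR called 2.12% of all genes higher. DESeq2 also called BZR1 and TCP1 higher, where it called 13.8% of all genes in either direction. By edgeR the estimate was positive in 10 factors, beside 50.5% of all genes. An unadjusted p under 0.05 was seen in 6, beside 4779 of all 18155 genes. In 3 factors DLK2-OE1 lay wholly above WT, beside 7.87% of all genes tested. BEE1 and BEE3 encode bHLH factors induced early by brassinosteroids. BEE1 was at 19.7, 27.3, 13.4 and 11.7 CPM in DLK2-OE1 leaves, against 6.19, 3.93, 3.43 and 8.52 CPM in WT (log2 fold change 1.71, SE 0.35, adjusted p = 0.0412 by edgeR). BEE3 was at 17.9, 21.0, 14.6 and 13.0 CPM in DLK2-OE1 leaves, against 8.26, 7.22, 6.21 and 10.6 CPM in WT (log2 fold change 1.05, SE 0.20, adjusted p = 0.0366 by edgeR). In both, every DLK2-OE1 library was above every WT library and replicate 2 was the highest. BZR1, the factor of the feedback on synthesis, averaged 34.9 ± 1.67 CPM in DLK2-OE1 and 29.1 ± 1.99 CPM in WT (SD, n = 4 each), also without overlap, and did not pass by edgeR (log2 fold change 0.26, SE 0.08, adjusted p = 0.0864 by edgeR). TCP1, a factor that raises DWF4 expression, had 125, 233, 48 and 3 counts in DLK2-OE1 and 0, 9, 1 and 11 in WT, and overlapped through DLK2-OE1 replicate 4 (adjusted p = 0.0655 by edgeR). DLK2-OE1 replicates 1 and 2 held most of its counts. Without DLK2-OE1 replicates 1 and 2, BEE1 had a log2 fold change of 1.198 (adjusted p = 0.184) and BEE3 of 0.79 (adjusted p = 0.143). Leaving out single libraries ended the call in 5 of 8 cases for each of them, all except WT replicate 4 and DLK2-OE1 replicates 3 and 4. By limma-voom BEE3 was called and BEE1 was not (adjusted p = 0.0591). BES1, the close homolog of BZR1, named after its values were seen, had a log2 fold change of 0.30 (adjusted p = 0.133 by edgeR).

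Of 10 genes that brassinosteroids induce, IAA19 rose and 9 did not pass by edgeR, with 5 positive and 5 negative estimates. Of all genes tested, edgeR called 2.12% higher. In this list 7 had an unadjusted p under 0.05, beside 4779 of all 18155 genes. DLK2-OE1 lay wholly above WT in 4 of the 10 and wholly below in 1, beside 7.87% and 7.29% of all genes. DESeq2 also called ARL higher and EXPA8 lower, where it called 13.8% of all genes, and limma-voom called none. IAA19, an auxin response repressor, was at 27.3, 28.4, 23.0 and 27.9 CPM in DLK2-OE1 leaves, against 12.1, 15.0, 13.2 and 21.3 CPM in WT (log2 fold change 0.79, SE 0.17, adjusted p = 0.0449 by edgeR). The groups did not overlap, with WT replicate 4 closest to DLK2-OE1. Without DLK2-OE1 replicates 1 and 2 its log2 fold change was 0.73 (adjusted p = 0.201), and the call was lost without WT replicate 1, 2 or 3 or DLK2-OE1 replicate 1 or 2 alone, and in limma-voom (adjusted p = 0.0531). In limma-trend on log2 FPKM with a pseudocount of 1, the adjusted p was 0.0506 for IAA19, 0.0528 for BEE1 and 0.0532 for UGT73C5. The next genes by p were ARL, an organ size gene, at a log2 fold change of 0.86 (adjusted p = 0.0756), the expansin EXPA8 at -0.49 (adjusted p = 0.0965) and PRE5, a small helix-loop-helix factor, at 1.70 (adjusted p = 0.125). These estimates were, without DLK2-OE1 replicates 1 and 2, 0.54 for ARL, -0.69 for EXPA8 and 0.84 for PRE5. TCH4, a wall-modifying xyloglucan enzyme named after its values were seen, was at 593, 410.0, 1163 and 1094 CPM in DLK2-OE1 and at 1037, 1292, 1312 and 1099 CPM in WT, with DLK2-OE1 replicates 1 and 2 lowest (log2 fold change -0.54, adjusted p = 0.301). Of 4 genes repressed by BZR1 or BES1, none passed by edgeR and 3 had an unadjusted p under 0.05, beside 4779 of all 18155 genes. DESeq2 called GLK1 and GLK2 lower, where it called 13.8% of all genes, and limma-voom called none. GLK1, a regulator of chloroplast genes, averaged 75.9 ± 13.5 CPM in DLK2-OE1 and 109 ± 4.12 CPM in WT (SD, n = 4 each; log2 fold change -0.52, SE 0.13, adjusted p = 0.0555), and for GLK2 the estimate was -0.35 (SE 0.09, adjusted p = 0.0591). Both had all DLK2-OE1 libraries below all WT libraries, as did 7.29% of all genes tested. Without DLK2-OE1 replicates 1 and 2 the estimates were -0.31 for GLK1 and -0.28 for GLK2. GATA2 and GATA4, factors of light responses, had log2 fold changes of 1.12 (adjusted p = 0.114) and 0.31 (adjusted p = 0.195), and GATA2 was at 0.72 without DLK2-OE1 replicates 1 and 2.

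The genes most like DWF1 over the 8 libraries were sought among 6833 genes with a symbol and at least 5 CPM in either genotype mean, by the root mean square difference of log2 CPM after subtraction of the WT mean. They were NPSN11 (0.104), WDL1 (0.113), IQD11 (0.14), HTA6 (0.142) and AUG4 (0.147). NPSN11, a SNARE protein of the cell division plane, averaged 19.0 CPM in DLK2-OE1 and 10.6 CPM in WT, and WDL1, a microtubule protein of the WAVE-DAMPENED family, averaged 16.2 CPM in DLK2-OE1 and 8.92 CPM in WT. HTA6 encodes a histone, AUG4 a subunit of the augmin complex on microtubules and IQD11 a calmodulin-binding protein. NPSN11, WDL1 and IQD11 passed the test, with log2 fold changes of 0.84, 0.86 and 0.69 (adjusted p = 0.0425, 0.045 and 0.0304 by edgeR), while HTA6 at 0.92 (0.0501) and AUG4 at 0.65 (0.0542) did not. Since likeness was measured on a profile that holds the genotype difference, their fold changes are a description.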

How the data were processed

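Poly(A) RNA of 8 rosette leaf libraries was sequenced on an Illumina instrument, per the labels' protocols. Per the submitters' processing notes, the build was TAIR10 and the tools included HISAT2, Bowtie2 2.2.8, RSEM, StringTie 1.3.1, fastp 0.18.0, edgeR and DESeq2, listed without their roles. Per the file headers, the authors deposited counts, which are whole numbers, and FPKM values per gene and library. No source used here says whether the counts are whole reads or rounded estimates, which annotation release was used or whether strand was. The 18097159 to 22139801 counts per library set the counting precision.

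The count test was that of edgeR 4.0.16 in R 4.3.3 (filterByExpr, TMM, robust quasi-likelihood test, genotype as the single term) over 18155 genes, with Benjamini-Hochberg adjustment and a threshold of 0.05. Standard errors were taken as the size of the log2 fold change over the square root of F, and 95% intervals from a t distribution with the degrees of freedom of the fit. FPKM served for levels between genes. Replicates differed by more than sampling noise (chi-square per degree of freedom at least 11.4), so each library counted once. Coordinates, sequences and motifs came from the RefSeq TAIR10.1 assembly, in Python 3.11.15. Of the rows, 26719 matched its locus tags.

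The members and lists were chosen with earlier results of these data known. Named genes were the 10 members, DLK2, from each of 6 brassinosteroid or sterol lists all genes past the threshold and, below 4, those of smallest p up to 4, and the 5 genes most like DWF1. Alternatives were DESeq2 size factors, no filter, DESeq2 1.42.0, limma-voom and limma-trend (limma 3.58.1) on log2 FPKM (pseudocount 1 or 0.1, genes at 1 FPKM or more in 4 libraries, or pseudocount 1 and no such filter), a replicate block, each library left out, and DLK2-OE1 replicates 1 and 2 left out together. The motif window before the start codon was added after seeing the data.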

Additional observations from a re-analysis of the deposited data

Results flagged for a closer look

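GATA4 in DLK2-OE1 replicate 3, at 46.9 CPM, lay far from the other 3 DLK2-OE1 libraries, which were at 56.6 to 58.1 CPM. The gap was 0.866 of the range of the group. Of 70 groups of 4 libraries examined this was the single case. Chance alone gives such a gap in about 1 of every 20 groups, so 1 case among 70 says little.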

How the results depend on the processing

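DWF1 was called in all alternatives with 8 libraries except limma-trend on log2 FPKM with no FPKM filter, where the log2 fold change was 0.94 (adjusted p = 0.0785). Without DLK2-OE1 replicates 1 and 2 it was 0.62 (0.114). Leaving out single libraries gave 0.73 to 0.91 and 0 to 1 members called higher. No member was called higher in those fits with no FPKM filter or without both libraries, which gave 0 calls each, and none was called lower in any alternative. For the other 9 members, 150 of 153 estimates under alternatives kept their direction and did not pass. The 3 that turned were DWF4 at 0.076 and CPD at 0.18 without DLK2-OE1 replicates 1 and 2, and BR6OX2 at -0.045 without DLK2-OE1 replicate 4, where leaving out single libraries gave -0.045 to 0.194. The cause was not tested.

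Of the 69 related genes, 4 were called by edgeR, 16 by DESeq2, 1 by limma-voom, 1 with the replicate block, 0 with no FPKM filter, 0 without DLK2-OE1 replicates 1 and 2, and 0 to 11 when single libraries were left out. Over all genes, 670 were called by edgeR, 2823 by DESeq2 (13.8% of 20441), 264 by limma-voom, 288 on log2 FPKM with a pseudocount of 1, 340 with 0.1, 51 with no FPKM filter, 245 with the replicate block, 60 without DLK2-OE1 replicates 1 and 2, and 0 to 2191 when single libraries were left out. The 0 was without WT replicate 3, where 3599 genes had an unadjusted p under 0.05. The FPKM scalings moved the all-gene median of the log2 fold change to 0.12, 0.13 and 0.10.

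With the replicate block DWF1 had an adjusted p of 0.0416, BEE1 of 0.0739, BEE3 of 0.0711 and IAA19 of 0.0537. The labels do not say that replicate numbers pair libraries, so the numbers were not taken as pairs. Libraries of the same number correlated at -0.03, 0.06, 0.12 and -0.10 in their deviations from the group means. Libraries of different numbers correlated at -0.20 to 0.24, so these values do not decide whether libraries were paired.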
